A study of Mus musculus with 20 samples.

Results

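The Fraser complex genes are Fras1, Frem1, Frem2 and Grip1, and they were followed through sorted mouse skin cells by taking the entries with those symbols from every RNA count file, which gave 4 genes of the 23432 listed. All 4 were counted in each of 12 RNA libraries and passed the filter on low counts in every comparison. The libraries form 4 groups of 3. E13 KO epidermis carried the genotype labelled {delta}Np63 -GFP KI-KO, while E13 Het epidermis, E9 Het epidermis and E13 Het dermis all carried {delta}Np63 -GFP KI-Het, so each group holds the GFP knock-in and none is wild type. Cells freed from back skin by collagenase and trypsin were sorted for GFP (epidermis) or for CD140a (dermis). Ribosomal RNA was removed before the epidermal libraries were made, whereas the dermal ones started from oligo(dT)-selected RNA, and so tissue and preparation cannot be told apart. ATAC and ChIP libraries of the series were not analysed here.

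FRAS1, FREM1 and FREM2 are large extracellular matrix proteins with CSPG and Calx-beta repeats that assemble into a complex beneath the epidermal basement membrane and anchor embryonic epidermis to dermis. FRAS1 and FREM2 are made by epithelial cells as transmembrane precursors, FREM1 is a secreted protein made largely by the underlying mesenchyme, and GRIP1 is a cytoplasmic PDZ-domain adaptor that carries FRAS1 and FREM2 to the basal cell surface. Loss of any of the 4 in mice gives embryonic skin blisters, and the mutants are known as blebbed (Fras1, bl), myelencephalic blebs (Frem2, my), head blebs (Frem1, heb) and eye blebs (Grip1, eb). FRAS1, FREM2 and GRIP1 mutations cause Fraser syndrome in humans. p63, encoded by Trp63, is the transcription factor that commits surface ectoderm to stratified epidermis, and deltaNp63 is its main epidermal isoform.

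On GRCm38.p6, Fras1 lies on chromosome 5 from 96373777 to 96784733, Frem2 on chromosome 3 from 53513938 to 53658593, Frem1 on chromosome 4 from 82897920 to 83052506 and Grip1 on chromosome 10 from 119453238 to 120087267. Grip1 overlaps Helb, which was also counted, as well as antisense genes that were not, and whether reads were counted by strand is not stated in the labels. Promoter windows of 300 bases in RefSeq's GRCm38.p6 table, from 250 before to 50 after a listed start, were matched for 3 of the 4 genes. The windows of Frem2 and of Frem1, the latter at the more upstream of its listed starts, are shown. Of these matrix genes, Frem2 had its higher levels in the epidermal and Frem1 in the dermal libraries. Both starts lie inside the span of their gene. Capitals mark the only match to the p53-family decamer, the 10-letter motif that p53, p63 and p73 share, in any window of the 3 genes.
Frem2 promoter window, chr3:53657306-53657605, minus strand: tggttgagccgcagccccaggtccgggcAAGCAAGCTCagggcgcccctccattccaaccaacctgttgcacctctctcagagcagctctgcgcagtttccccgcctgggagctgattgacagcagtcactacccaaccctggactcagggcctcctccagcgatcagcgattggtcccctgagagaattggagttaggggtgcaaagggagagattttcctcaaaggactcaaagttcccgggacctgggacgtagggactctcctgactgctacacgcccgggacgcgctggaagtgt
Frem1 promoter window, chr4:83052117-83052416, minus strand: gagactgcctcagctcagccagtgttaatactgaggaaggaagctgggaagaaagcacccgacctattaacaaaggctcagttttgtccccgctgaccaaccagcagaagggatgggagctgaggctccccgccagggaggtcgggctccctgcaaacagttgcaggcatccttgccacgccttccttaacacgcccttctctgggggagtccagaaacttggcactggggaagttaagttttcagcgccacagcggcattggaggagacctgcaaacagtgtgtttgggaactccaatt
The Frem2 match, AAGCAAGCTC, spans bases -222 to -213 from the start, and the motif is its own reverse complement, so the search covered both strands. None of the Frem1 or Grip1 windows held a match, which says only that these letters are not in those windows. Of all 32851 windows in the table, 2745 (8.36%) held at least 1 match. The Frem2 window had a GC content of 60.3% and the Frem1 window one of 55.7%, against a median of 52.7% over all windows.

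Gene counts per library ranged from 3373819 to 7777808 in epidermis and from 16931664 to 33386872 in dermis, and levels are given as CPM (counts scaled to the library's total) with TMM-scaled totals over the 12 libraries. Genes with a count ranged from 10765 to 16200 per epidermal library, with the fewest in E13 Het replicate 1 and KO replicate 3 (11275). Trp63, the targeted gene, had 23, 25 and 20.4 CPM in E13 KO epidermis, 519.9, 611 and 454 CPM in E13 Het epidermis, 279, 218 and 121 CPM in E9 Het epidermis and 0.462, 0 and 2.15 CPM in dermis. It was lower in KO than in Het epidermis by a log2 fold change of -4.54 ± 0.28 (SE; edgeR quasi-likelihood adjusted p = 1.5e-06) and higher at E13 than at E9 by 1.36 ± 0.24 (adjusted p = 0.00305, but 0.189 with all 12 libraries in 1 fit). Marker sums followed the labelled tissues, but the epidermal markers did not move together in KO epidermis. Krt8, Krt18, Epcam and Cdh1 averaged 851, 767, 472 and 742 CPM there, against 239, 156, 205 and 702 CPM in E13 Het epidermis. Krt5, Krt14, Perp, Col17a1, Itgb4 and Cdh3 went the other way. Krt5 averaged 34.4 against 1227 CPM, and Perp 30.1 against 378 CPM. The 10 epidermal markers summed to 2882 to 3861 CPM in KO epidermis, 4255 to 5299 CPM in E13 Het epidermis, 2219 to 2245 CPM in E9 epidermis and 46.4 to 67.0 CPM in dermis. The 10 dermal markers summed to 1006 to 2068 CPM in KO epidermis, 259.9 to 1310.0 CPM in E13 Het epidermis, 169 to 230.4 CPM in E9 epidermis and 30739 to 41600.3 CPM in dermis.

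All 4 genes differed between E13 Het epidermis and dermis in edgeR's quasi-likelihood test, and between KO and Het epidermis edgeR and limma voom called none of them, while DESeq2 called Frem2 and Grip1. Fras1 and Frem2 were epidermal in every epidermal group, Grip1 was epidermal in both Het groups, and Frem1 was dermal. The only dermis was E13 Het, so comparisons with it also differ in embryonic day for E9 and in genotype for KO epidermis. In those comparisons, day or genotype cannot be told apart from tissue and preparation. Against E13 Het dermis, E13 Het epidermis had 3 members higher and 1 lower, where 34.7% of all 12975 genes tested were called, 16.5% higher and 18.2% lower. KO epidermis had 2 higher and 1 lower (35.6% of 13140 genes called, 16.7% higher and 18.8% lower), and E9 Het epidermis 3 higher and 1 lower (41.4% of 13046 genes called, 18.5% higher and 22.9% lower). The libraries of all 4 members were separated from the dermal ones in each of these comparisons, where 55.9%, 55.5% and 57.0% of genes tested were. With library totals left unscaled, the calls over all genes against dermis split as 3156 higher and 1438 lower for E13 Het epidermis, in place of 2140 and 2364, as 3422 and 1319 for KO epidermis, in place of 2199 and 2475, and as 3488 and 1839 for E9 epidermis, in place of 2407 and 2992. The median log2 fold change of all genes was then 0.304, 0.385 and 0.32 instead of -0.13, -0.11 and -0.12. The epidermal members' differences were many times that shift for Fras1 and Frem2, and their directions, with those of Frem1 and Grip1, held under both scalings.

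Between KO and Het epidermis at E13, none of the 4 members passed an adjusted p of 0.05 in edgeR's quasi-likelihood test, where 2.20% of 13052 genes did, 0.835% higher and 1.36% lower. At an unadjusted p under 0.05, Frem2 was the only member higher and Grip1 the only member lower, but the share of all genes there was not counted. DESeq2 called those 2 genes, where it called 5.12% of all genes tested, and limma voom called 0 members, where it called 5.03%. Between E13 and E9 Het epidermis, Fras1 rose and Frem1 fell, with 7.29% of all genes called, 4.77% higher and 2.53% lower. Between E13 KO and E9 Het epidermis the same 2 genes were called in the same directions, with 7.67% of all genes called, 4.62% higher and 3.05% lower. These comparisons share libraries, so they do not repeat each other independently. Libraries did not overlap for 2 members between KO and Het epidermis, for 3 between E13 and E9 and for 3 between KO and E9, against 20.0%, 28.9% and 32.0% of all genes. The median log2 fold change of the 4 members was -0.38, -0.05 and -0.23 in these comparisons, against 0.03, -0.00 and 0.01 over all genes tested.

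**Figure D1:**
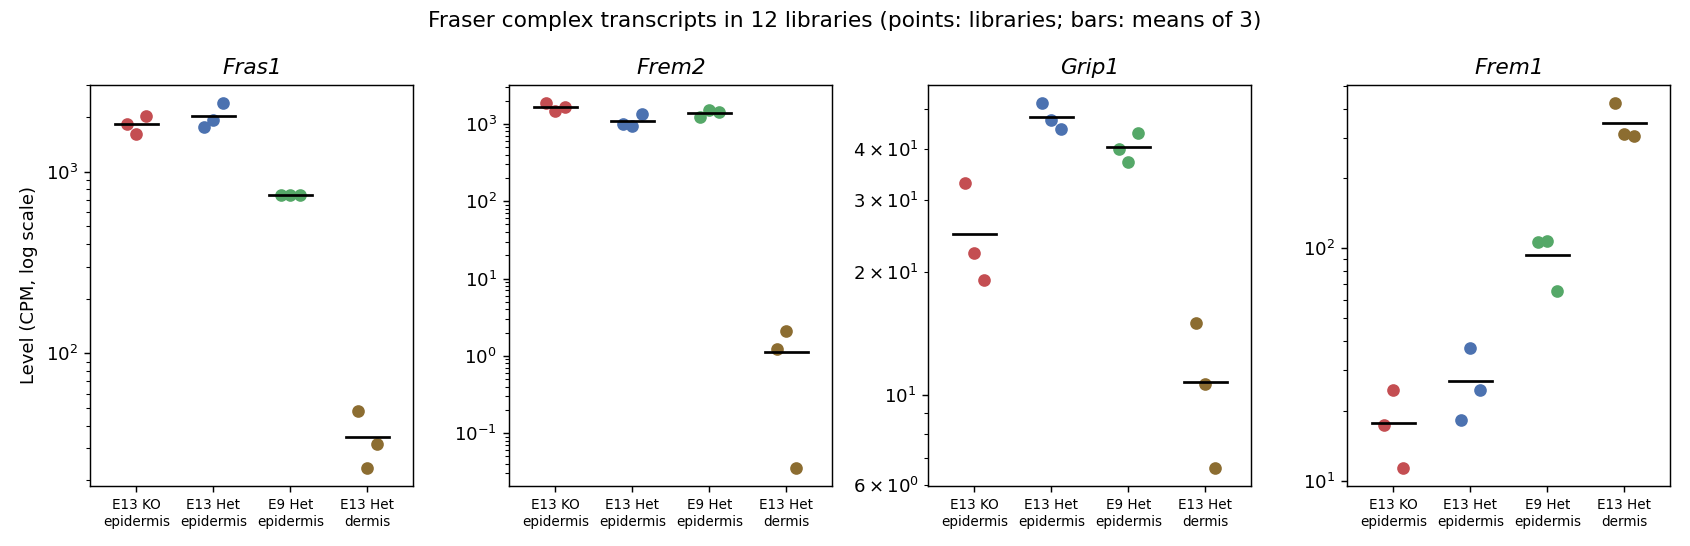
Level of each Fraser complex gene in every library (CPM with TMM-scaled totals, log axis), with 3 libraries in each of E13 KO epidermis, E13 Het epidermis, E9 Het epidermis and E13 Het dermis. Fras1 and Frem2 lie far above dermis in all 9 epidermal libraries, Frem1 is highest in dermis, and Grip1 shows the narrowest range.

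Fras1, the founding transmembrane member, was high in all 3 epidermal groups, lower at E9 than at E13, and low in dermis. It had 1831, 1618 and 2026 CPM in KO epidermis, 1775, 1926 and 2389 CPM in E13 Het epidermis, 743, 749 and 741 CPM in E9 epidermis and 48.1, 23.5 and 31.8 CPM in dermis. KO and Het libraries at E13 interleaved, every E13 library was above every E9 library, and the dermal libraries were lowest. The KO and Het means were 1825 ± 204 and 2030.1 ± 320.0 CPM (SD, n = 3 each), and the log2 fold change of -0.16 ± 0.13 had a 95% interval of -0.44 to 0.11 (edgeR adjusted p = 0.738). Fras1 was 2.74-fold higher in E13 than in E9 Het epidermis (log2 1.45 ± 0.13, edgeR adjusted p = 1.0e-05). It was 2.45-fold higher in E13 KO than in E9 Het epidermis (log2 1.29 ± 0.13, edgeR adjusted p = 2.8e-05). The order of levels was E13 Het and KO epidermis, whose spreads overlap, then E9 epidermis, then dermis.

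In sorted bulk samples, fewer cells of a type and less RNA per cell cannot be told apart, and this holds for the low dermal values in particular. Fras1 was 58.4-fold higher in E13 Het epidermis than in dermis (log2 5.87 ± 0.31, edgeR adjusted p = 2.1e-05). It was 52.3-fold higher in KO epidermis (log2 5.71 ± 0.28, edgeR adjusted p = 5.9e-06) and 21.3-fold higher in E9 epidermis (log2 4.41 ± 0.24, edgeR adjusted p = 1.1e-06). The dermal mean of 34.5 ± 12.5 CPM was 1.89% of the KO level, 1.70% of the E13 Het level and 4.63% of the E9 level. The summed epidermal markers in dermis stood at 1.67%, 1.16% and 2.49% of those same groups. Cdh3, P-cadherin, made up 43.9 of the 55.7 CPM of that dermal sum. Without Cdh3, which was set apart after its values were seen, the dermal share of the other 9 markers was 0.396% of KO, 0.274% of E13 Het and 0.650% of E9 epidermis, each below the dermal share of Fras1. The part of epidermal cells in the dermal Fras1 signal was not tested.

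Frem2, the transmembrane partner that FRAS1 needs for its own deposition, had the largest fold difference from dermis of the 4 members. It had 1858, 1463 and 1659 CPM in KO epidermis, 1011, 935 and 1344 CPM in E13 Het epidermis, 1247, 1533 and 1433 CPM in E9 epidermis and 1.21, 2.07 and 0.0358 CPM in dermis. All KO libraries were above all E13 Het libraries, and E9 libraries overlapped both. The dermal values rest on 21, 24 and 1 counts. Their mean of 1.11 CPM was 0.0666% of the KO, 0.101% of the E13 Het and 0.0788% of the E9 level, below the shares of the epidermal marker sum given for Fras1, with or without Cdh3. Frem2 was higher in E13 Het epidermis than in dermis by a log2 fold change of 10.13 ± 0.95 (edgeR adjusted p = 3.9e-04), in KO epidermis by 10.75 ± 0.85 (5.0e-05) and in E9 epidermis by 10.53 ± 0.77 (1.4e-05).

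Within the epidermis Frem2 averaged 1660.0 ± 198 CPM in KO and 1097 ± 217 CPM in Het cells at E13 (SD, n = 3 each), a 1.5-fold difference. The log2 fold change of 0.59 ± 0.15 had a 95% interval of 0.27 to 0.90, and its edgeR adjusted p of 0.0582 missed the threshold. Without E13 Het replicate 3 it was 0.76 (edgeR adjusted p = 0.00556) and without KO replicate 2 it was 0.68 (edgeR adjusted p = 0.0429). Over all 6 refits that left out a library it ranged between 0.47 and 0.76, with adjusted p up to 0.252. E13 Het replicate 3 also stood apart in Krt8, with 627 CPM against 67.6 and 21.7 CPM in replicates 1 and 2. Krt18 was likewise at 412 CPM there, against 29.4 and 26.1 CPM, and the reason was not tested. Among the other alternatives the adjusted p reached 0.773, with all 12 libraries in 1 edgeR fit (log2 0.60). With unscaled totals the change was 0.65 (edgeR adjusted p = 0.0264), and DESeq2 gave 0.59 (adjusted p = 0.0059). Between E13 and E9 Het epidermis the log2 fold change was -0.35 ± 0.15 (95% interval -0.67 to -0.03, edgeR adjusted p = 0.198), and it reached -0.55 (edgeR adjusted p = 0.0253) without E13 Het replicate 3. KO and E9 epidermis differed by 0.24 ± 0.15 (95% interval -0.08 to 0.55, edgeR adjusted p = 0.411). In order, KO was highest, then E9, E13 Het and dermis, and no neighbours among the epidermal groups differed past the threshold.

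Because both genes sit in the same libraries, the ratio of their counts needs no scaling between libraries. Fras1 counts per Frem2 count were 0.986, 1.11 and 1.22 in KO epidermis, 1.75, 2.06 and 1.78 in E13 Het epidermis and 0.596, 0.488 and 0.517 in E9 epidermis. The 3 epidermal groups did not overlap, with KO between the E13 and E9 Het groups. Geometric means were 1.10 in KO and 1.86 in E13 Het epidermis, a 1.69-fold difference, and 1.86 at E13 against 0.532 at E9 in Het epidermis, a 3.50-fold difference. Each of these comparisons had p = 0.1 in an exact two-sided permutation test, which is the smallest p that 3 against 3 libraries allow. The ratio compares the same pair of genes between libraries and gives no ratio of molecules, since transcript lengths were not corrected for. Other member pairs did not place KO between the Het groups. Fras1 counts per Grip1 count were 55.4, 72.6 and 106 in KO and 34.3, 40.8 and 53.4 in E13 Het epidermis. In E9 epidermis they were 18.5, 20.2 and 16.9. KO was lowest in Frem1 per Frem2 and overlapped E13 Het in Fras1 per Frem1. The share of all gene pairs that separate was not counted.

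**Figure D2:**
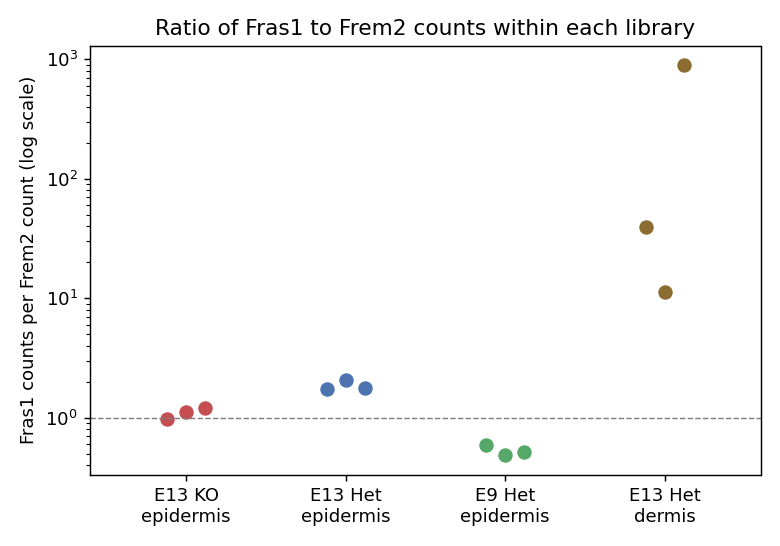
Fras1 counts divided by Frem2 counts in each library on a log axis, by group. The 3 KO libraries, from 0.986 to 1.22, lie between the E13 Het libraries, from 1.75 to 2.06, and the E9 libraries, from 0.488 to 0.596, and the dermal ratios rest on at most 24 Frem2 counts.

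Frem1, the secreted member, was the dermal gene of the complex. It had 17.3, 24.7 and 11.4 CPM in KO epidermis, 18.3, 37.3 and 24.7 CPM in E13 Het epidermis, 107, 108 and 65.6 CPM in E9 epidermis and 422, 310.1 and 305 CPM in dermis. Every E9 library was above every E13 epidermal library, and every dermal library above those. Frem1 was 12.9-fold lower in E13 Het epidermis than in dermis (log2 -3.69 ± 0.30, edgeR adjusted p = 8.5e-05). It was 19.3-fold lower in KO epidermis (log2 -4.27 ± 0.29, edgeR adjusted p = 1.6e-05) and 3.73-fold lower in E9 epidermis (log2 -1.90 ± 0.22, edgeR adjusted p = 1.1e-04). KO and Het epidermis at E13 averaged 17.8 ± 6.68 and 26.8 ± 9.66 CPM and overlapped, with a log2 fold change of -0.60 ± 0.36 (95% interval -1.36 to 0.17, edgeR adjusted p = 0.602).

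In the epidermal series Frem1 ran opposite to Fras1 with age. It fell to 26.8 CPM in E13 Het epidermis, against 93.7 ± 24.3 CPM at E9 (3.49-fold, log2 -1.80 ± 0.36, edgeR adjusted p = 0.00641). It was 5.27-fold lower in E13 KO than in E9 epidermis (log2 -2.40 ± 0.37, edgeR adjusted p = 0.00104). Of the 10 dermal markers, only Dcn was called between E13 and E9 Het epidermis, higher at E13 (edgeR adjusted p = 1.0e-04), and Dpt was not tested. The markers summed to 269, 1310.0 and 259.9 CPM in the E13 Het and 217, 169 and 230.4 CPM in the E9 epidermal libraries, and Lum, Dcn, Twist2 and Dpt had no count in any E9 library. Per 1000 CPM of dermal markers, Frem1 stood at 68, 28.5 and 95 CPM in E13 Het and 493, 640.3 and 285 CPM in E9 epidermis, against 10.1, 10.1 and 8.88 CPM in dermis. These E9 ratios rest on a sum in which 4 markers had no count at E9, and the part of mesenchymal cells in the E9 Frem1 signal was not tested. In KO epidermis the values were 17.2, 11.9 and 10.2 CPM, close to dermis, and the dermal marker sums were 1006, 2068 and 1121 CPM. Col3a1 alone made up 593, 925 and 848 CPM of those sums. In dermis it made up 15789, 10429 and 12802 CPM of the marker sums. The ratio without Col3a1 was not computed. By group mean, Dcn (24.6 against 55.1 CPM), Twist2 and Dpt stood below their E13 Het values in KO epidermis, and the other dermal markers above. The part of dermal cells in the KO signal was not tested. Skeletal muscle markers summed to 0 to 3.09 CPM in E13 Het and 12.3 to 58.9 CPM in E9 epidermis, with Myod1, Myog and Myf6 at 0 in all E9 libraries, and their part was not tested.

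**Figure D3:**
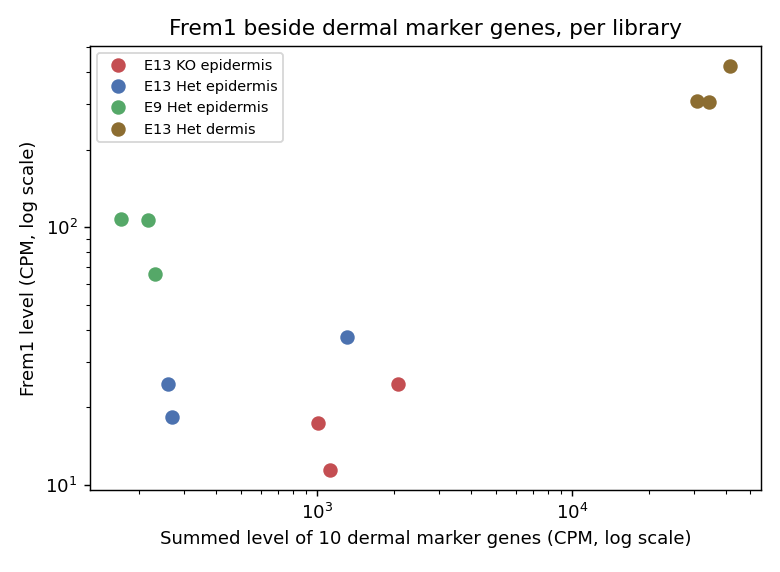
Frem1 level against the summed level of 10 dermal marker genes in each of the 12 libraries (CPM, both axes log), by group. The 3 E9 epidermal libraries hold 65.6 to 108 CPM of Frem1 at 169 to 230.4 CPM of dermal markers, while KO libraries hold 11.4 to 24.7 CPM at 1006 to 2068 CPM.

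Grip1, the adaptor, had the smallest fold difference from dermis of the 4 members in both E13 epidermal groups. It had 33.0, 22.3 and 19.1 CPM in KO epidermis, 51.8, 47.2 and 44.8 CPM in E13 Het epidermis, 40.1, 37.2 and 43.8 CPM in E9 epidermis and 15.0, 10.6 and 6.63 CPM in dermis. The 4 groups did not overlap, in the order E13 Het, E9, KO and dermis. Grip1 was 4.41-fold higher in E13 Het epidermis than in dermis (log2 2.14 ± 0.35, edgeR adjusted p = 0.00243) and 3.71-fold higher in E9 epidermis (log2 1.89 ± 0.36, edgeR adjusted p = 0.00223). In KO epidermis the log2 difference from dermis was 1.20 ± 0.45 (edgeR adjusted p = 0.0653), which passed with unscaled totals (1.67, adjusted p = 0.018) and without KO replicate 3 (1.32, adjusted p = 0.0255). The dermal mean of 10.8 CPM was 43.3% of the KO, 22.4% of the E13 Het and 26.6% of the E9 level, well above the dermal share of the epidermal markers.

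KO and Het epidermis at E13 averaged 24.8 ± 7.29 and 47.9 ± 3.55 CPM of Grip1 (SD, n = 3 each), with every KO library below every Het library. The log2 fold change of -0.96 ± 0.31 had a 95% interval of -1.62 to -0.30, and its edgeR adjusted p of 0.165 did not pass, though DESeq2 gave -0.95 with an adjusted p of 0.0458. Between E13 and E9 Het epidermis it was 0.25 ± 0.30 (95% interval -0.40 to 0.91, edgeR adjusted p = 0.749), and between KO and E9 -0.70 ± 0.31 (95% interval -1.36 to -0.05, edgeR adjusted p = 0.2). GRIP1 is also a neuronal adaptor, and the 8 neuronal markers summed to 59.3 to 168 CPM in KO, 1.81 to 29.9 CPM in E13 Het and 28.9 to 87.9 CPM in E9 epidermis, and to 167 to 231 CPM in dermis with Dcx at 0. Map2 made up 76.4, 122 and 44.8 CPM of the KO sums. The dermal sums were mostly Gap43 and Stmn2, with means of 141 and 30.6 CPM, against 1.39 and 4.32 CPM in KO epidermis. These sums thus rest on different genes in KO epidermis and in dermis. By mean, Elavl3 alone of the neuronal markers was not raised in KO over E13 Het epidermis (1.04 against 1.35 CPM). The part of neuronal cells in the Grip1 values was not tested.

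**Figure D4:**
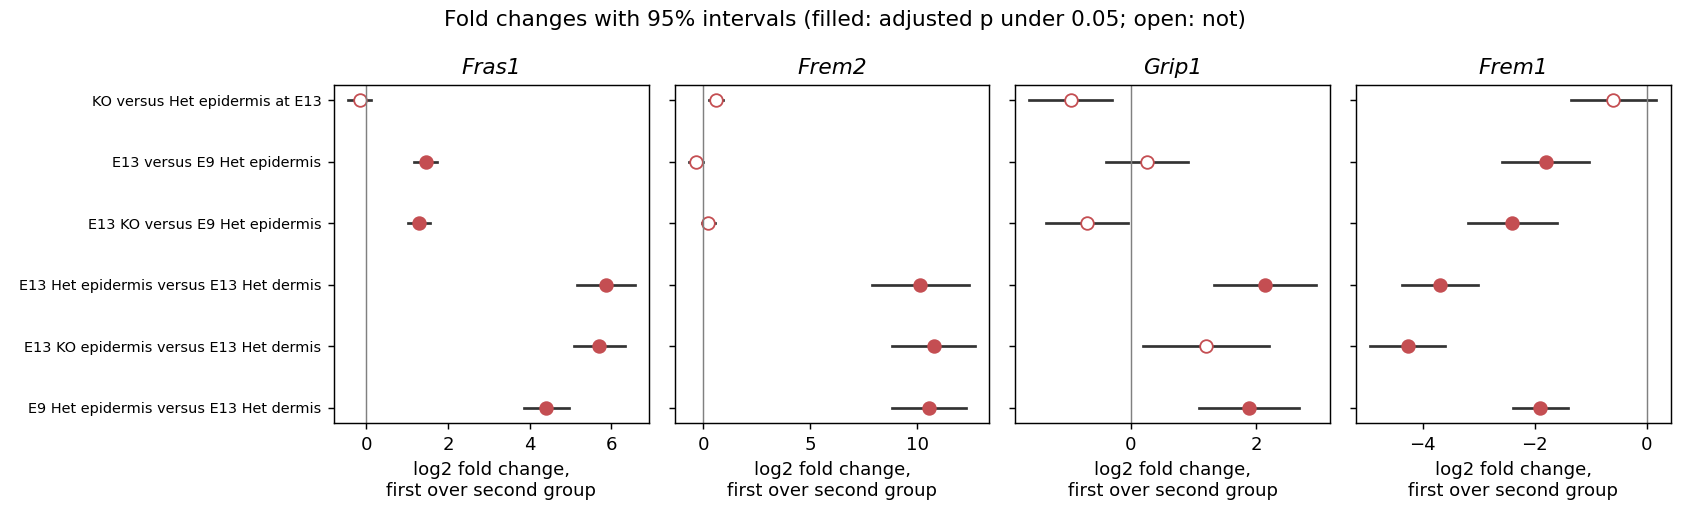
Log2 fold change of the 4 genes in each of 6 comparisons, first-named over second-named group, with 95% intervals from the edgeR fit and filled points for an adjusted p under 0.05. Fras1 has an interval of -0.44 to 0.11 between KO and Het epidermis and is 1.45 higher at E13 than at E9, and Frem1 is the only member below 0 in all 3 comparisons with dermis.

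The proteins around the complex were followed as a list of 15 genes, namely relatives (Frem3, Grip2, Cspg4), the ligand nephronectin with integrin subunits, further basement membrane partners and proprotein convertases, which cleave the FRAS1 and FREM precursors. Of these, 13 were tested in the epidermal comparisons, Frem3 and Grip2 being too low. Frem3 had at most 7 counts in any epidermal library. Between KO and Het epidermis, 2 of the 13 were higher and 2 lower, with a median log2 fold change of 0.08 against 0.03 over all genes, where 0.835% of all genes were called higher and 1.36% lower. Between E13 and E9 Het epidermis, 2 were higher and 3 lower, with a median of -0.08 against -0.00, where 4.77% of all genes were higher and 2.53% lower. Between KO and E9 epidermis 2 were higher (Pcsk6, and Furin with an edgeR adjusted p of 0.0299 that was lost in 5 of 6 refits without a library) and 1 lower (Itga3), with a median of 0.34 against 0.01, where 4.62% of all genes were higher and 3.05% lower. Against dermis, 14 were tested, and E13 Het epidermis had 3 higher and 4 lower, KO epidermis 4 and 5, and E9 epidermis 3 and 6, with medians of -0.37, -0.31 and -0.53 against -0.13, -0.11 and -0.12. Over all genes, 16.5% were higher and 18.2% lower in E13 Het epidermis, 16.7% and 18.8% in KO epidermis, and 18.5% and 22.9% in E9 epidermis.

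Npnt encodes nephronectin, the matrix ligand that the complex holds in the basement membrane. It had 393, 219 and 342 CPM in KO, 134, 143 and 146 CPM in E13 Het and 209, 227 and 339 CPM in E9 epidermis, and 7.40, 2.33 and 9.03 CPM in dermis. All KO libraries were above all E13 Het libraries, and dermis was lowest. It was higher in KO than in Het epidermis by 1.16 ± 0.22 on the log2 scale (edgeR adjusted p = 0.012). That call was lost without E13 Het replicate 1, KO replicate 1 or KO replicate 3, with adjusted p up to 0.0681. Against dermis it was higher by 4.45 ± 0.45 in E13 Het epidermis (edgeR adjusted p = 3.0e-04). Its E13 to E9 difference of -0.86 ± 0.22 (edgeR adjusted p = 0.0298) was lost in 5 of 6 refits without a library, with adjusted p up to 0.149.

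Itga8, the alpha subunit of the integrin that binds nephronectin, was instead highest in dermis. It had 4.24, 15.4 and 12.9 CPM in KO, 0, 4.94 and 1.02 CPM in E13 Het and 4.11, 4.4 and 3.44 CPM in E9 epidermis, and 203, 178 and 194 CPM in dermis, so that dermal libraries were separate from all others. Itga8 was lower in E13 Het epidermis than in dermis by -6.41 ± 0.81 on the log2 scale (edgeR adjusted p = 0.00126), and Itgb1, its beta subunit, by -1.44 ± 0.22 (edgeR adjusted p = 0.00157). Itga3, the laminin-binding integrin subunit whose function is linked to FRAS1, had 165, 113 and 178 CPM in KO, 295, 246 and 278 CPM in E13 Het and 458, 457 and 402 CPM in E9 epidermis, and at most 2.62 CPM in dermis. The 3 epidermal groups did not overlap. Relative to E13 Het epidermis, Itga3 in KO was lower by -0.85 ± 0.18 (edgeR adjusted p = 0.0195), a call lost without E13 Het replicate 1 or KO replicate 2 (adjusted p up to 0.0697). It was lower in KO than in E9 epidermis by -1.53 ± 0.18 (edgeR adjusted p = 1.0e-04).

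Among the basement membrane partners, Col7a1, the anchoring fibril collagen, had 9.40, 16.0 and 12.9 CPM in KO, 136, 95 and 70.1 CPM in E13 Het and 6.52, 2.47 and 5.73 CPM in E9 epidermis, and 539, 433 and 351 CPM in dermis. KO libraries were all below the E13 Het ones, and dermis was highest. It was lower in KO than in Het epidermis by -2.99 ± 0.41 (edgeR adjusted p = 0.00108) and higher at E13 than at E9 by 4.36 ± 0.44 (edgeR adjusted p = 3.1e-05). Hmcn1, hemicentin 1, had 172, 226 and 207 CPM in KO and 87, 141 and 63 CPM in E13 Het epidermis. Its log2 fold change of 1.04 ± 0.25 (edgeR adjusted p = 0.0417) lost its call in 5 of 6 refits without a library, with adjusted p up to 0.151. Vwa2, which encodes AMACO, a matrix protein that binds the complex, had 35.9, 37.6 and 34.4 CPM in KO and 35.3, 28.4 and 17.4 CPM in E13 Het epidermis, against 6.18, 0.862 and 1 CPM in dermis. It was higher in E13 Het epidermis than in dermis by 3.33 ± 0.84 (edgeR adjusted p = 0.0162, but 0.0528 without dermis replicate 3), and KO and Het epidermis differed by 0.40 ± 0.34 (adjusted p = 0.761).

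Of the convertases, Pcsk6 had 122, 72.5 and 104 CPM in KO, 147, 132 and 146 CPM in E13 Het and 19.7, 13.0 and 29.6 CPM in E9 epidermis, and 186, 165 and 164 CPM in dermis. E9 libraries were all below the E13 ones, and Pcsk6 was higher at E13 than at E9 in Het epidermis by 2.79 ± 0.30 on the log2 scale (edgeR adjusted p = 4.8e-05), the same direction as Fras1. Unlike Fras1, Pcsk6 was highest in dermis. It was called lower than dermis in E9 epidermis and in KO epidermis, the KO call being lost without dermis replicate 1. Furin had 168, 105 and 135 CPM in KO and 95.2, 81.9 and 111 CPM in E13 Het epidermis, with a log2 fold change of 0.49 ± 0.22 (edgeR adjusted p = 0.411). Pcsk5 and Pcsk7 were not called in any of the 6 comparisons.

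**Figure D5:**
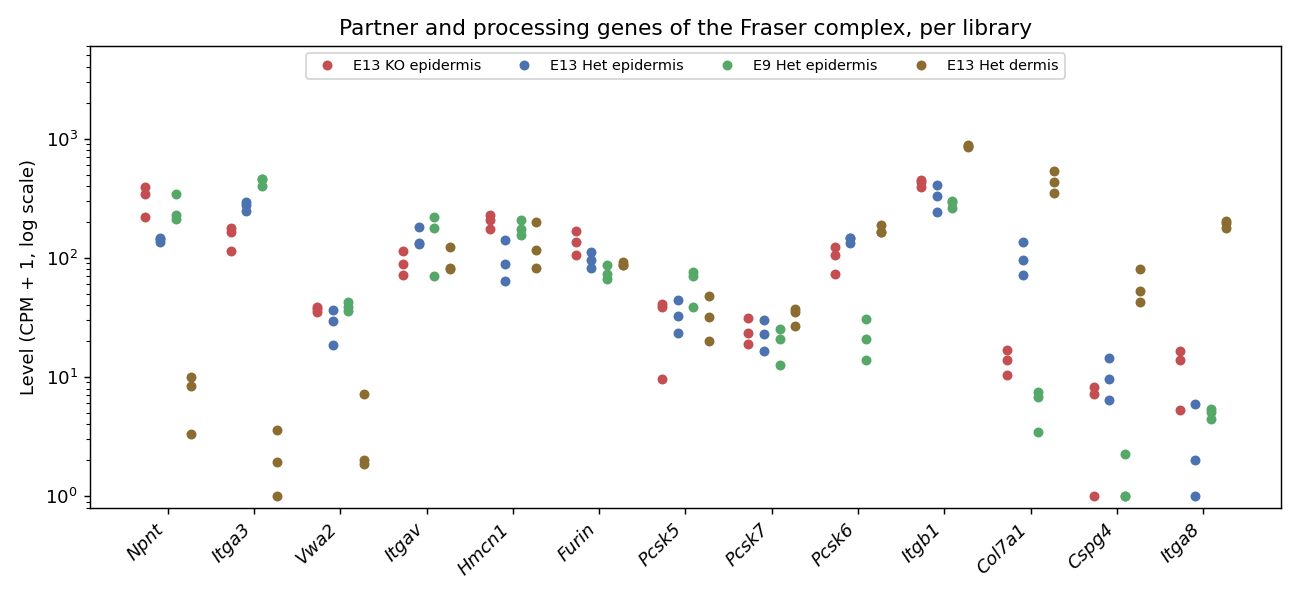
Level in each library (CPM + 1, log axis) of 13 genes whose products surround the Fraser complex, by group. Npnt and Itga3 lie above dermis in all epidermal libraries, Itga8 and Itgb1 lie below it, and Col7a1 in KO epidermis (9.40 to 16.0 CPM) is below E13 Het epidermis (70.1 to 136 CPM).

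Of 12 GRIP1 binding partners, all were tested and 2 of them are the members Fras1 and Frem2. Between KO and Het epidermis, edgeR called 0, with 3 higher and 0 lower at an unadjusted p under 0.05, while DESeq2 called 2 higher and limma voom 1. Of all genes tested, edgeR called 2.20%, DESeq2 5.12% and limma voom 5.03%. The 3 genes at an unadjusted p under 0.05 were Gria2, Gria3 and the member Frem2, already described, and the share of all genes at that p was not counted. Between E13 and E9 Het epidermis 3 were higher (Fras1, Efnb2, Gria2) and 1 lower (Gria3, a call lost without E9 replicate 2 or 4), with a median log2 fold change of 0.32 against -0.00 over all genes, of which 4.77% were higher and 2.53% lower. Efnb2, the ephrin-B2 ligand, had 440.5, 369 and 347 CPM in KO, 484, 353 and 422 CPM in E13 Het and 152, 162 and 252 CPM in E9 epidermis, with the E9 libraries all lowest. It was higher at E13 than at E9 by 1.16 ± 0.20 (edgeR adjusted p = 0.00196). Gria2, an AMPA receptor subunit, had 137, 182 and 83.6 CPM in KO and 30.3, 74.2 and 32.5 CPM in E13 Het epidermis but 0 counts in all 3 E9 libraries. Set at 3 counts over the E9 group (0.176 CPM), Gria2 was at least 765-fold higher in KO and at least 260.2-fold higher in E13 Het epidermis, a bound that covers counting error only. Between KO and Het epidermis it differed by 1.54 ± 0.39 on the log2 scale without overlap (edgeR adjusted p = 0.0742). The neuronal marker sums given for Grip1 were mainly Map2 in KO epidermis, and the part of neuronal cells in the Gria2 values was not tested. Against dermis, E13 Het epidermis had 6 partners higher and 3 lower, KO epidermis 6 and 2, and E9 epidermis 4 and 3, each count of higher genes including Fras1 and Frem2. Of all genes tested, 34.7%, 35.6% and 41.4% were called in these comparisons.

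Of 22 basement membrane and hemidesmosome genes, 6 were lower in KO than in Het epidermis (Lama5, Col18a1, Col17a1, Itga6, Itgb4, Dst) and 0 higher in edgeR's test, where 1.36% of all genes were lower. Of these, Col17a1, Itga6, Itgb4 and Dst are hemidesmosome genes, and only Lama5 and Col18a1 encode basement membrane matrix proteins. At an unadjusted p under 0.05, where the share of all genes was not counted, and in DESeq2 and limma voom, 0 were higher as well. Col17a1 and Itgb4 are also among the epidermal markers, whose sum is given above. The median log2 fold change of the list was -0.65, against 0.03 over all genes and -0.38 for the 4 Fraser complex genes, and the difference between the lists was not tested. Col18a1, a basement membrane collagen, had 296, 309 and 267 CPM in KO and 1071, 1036 and 1109 CPM in E13 Het epidermis (log2 -1.90 ± 0.11, edgeR adjusted p = 6.0e-07). Itgb4, of the hemidesmosome, had 75.9, 57.5 and 68.1 CPM in KO and 440.4, 371 and 274 CPM in Het epidermis (log2 -2.44 ± 0.22, edgeR adjusted p = 2.3e-05). Lama5, the laminin alpha 5 chain, had 533, 414 and 553 CPM in KO and 885, 824 and 879 CPM in Het epidermis (log2 -0.80 ± 0.14, edgeR adjusted p = 0.0052). Between E13 and E9 Het epidermis 6 were higher and 2 lower, with a median of 0.32 against -0.00 and with 4.77% of all genes higher and 2.53% lower. Between KO and E9 epidermis 4 were higher and 5 lower, with a median of -0.23 against 0.01 and with 4.62% of all genes higher and 3.05% lower.

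For each member, the 5 genes with the most similar profile were those with the smallest root mean square difference of log2(CPM + 1), centred per gene, over the 12 libraries. For Fras1 these were Map7, Celsr1, Arhgef19, Eps8l2 and Exph5, with differences of 0.35 to 0.44. For Frem2 they were Cdh1 at 0.49, Lama5, Dsg2, Hist2h2bb and Esrp1 at up to 0.94, and Cdh1 averaged 742 CPM in KO, 702 CPM in E13 Het and 523 CPM in E9 epidermis and 0.185 CPM in dermis. Frem1 was closest to Vstm2b, Pxdc1, Ndn, Aebp1 and Acer2, at 0.52 to 0.56, and Ndn averaged 16.5, 11.7 and 40.3 CPM in those groups and 176 CPM in dermis. Grip1 was closest to Zfp219, Bcr, Mybbp1a, Myh9 and Heatr1, at 0.25 to 0.29. Over the 9 epidermal libraries alone, 0 of 5 genes were shared with these lists for each member. With a pseudocount of 0.25 in place of 1, 2 of 5 were shared for Fras1, 2 for Frem1, 4 for Frem2 and 5 for Grip1.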

How the data were processed

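The deposited RNA files hold whole-number counts per gene symbol, 1 file per library, with HTSeq summary lines. The summary lines held 48.8% to 63.8% of all counts in epidermal and 20.2% to 21.6% in dermal files and were left out. TopHat2, Bowtie2 and HTSeq, with no versions, and the mm10 build appear in the submitters' processing notes. Of 23432 symbols, 21570 matched RefSeq's GRCm38.p6 table and 1712 more a synonym. Counts were tested with edgeR 4.0.16 in R 4.3.3 (filterByExpr, TMM, robust quasi-likelihood F test) and Benjamini-Hochberg adjustment over all genes, at 0.05. The 3 epidermal comparisons came from 1 fit of 9 libraries, with 6 residual degrees of freedom, and each comparison with dermis from 6 libraries. Intervals use the fit's SE. Alternatives included DESeq2 1.42.0 and limma 3.58.1 voom. The named genes are the 4 members, Trp63, genes of the lists described and the 5 genes of closest profile among genes averaging 5 CPM or more in some group. The members and lists were chosen with earlier results of these data known. Nothing in the labels ties replicates to separate animals, so p-values measure only the spread between these samples, which may be technical. Replicates differed by more than sampling noise (chi-square per degree of freedom of 15.4 or more).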

Additional observations from a re-analysis of the deposited data

How the results depend on the processing

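No change of direction was found for the 4 members in any alternative. The calls and non-calls of Fras1 and Frem1 held in every one in all 6 comparisons, DESeq2, limma voom, other scalings, no filter, omission of Rn45s and Lars2, all 12 libraries in 1 fit and omitted libraries included. The Frem2 difference between KO and Het epidermis passed with unscaled totals (0.65), with no filter on low counts (0.59, edgeR adjusted p = 0.00513) and in DESeq2 (0.59), but not with only the compared groups in the fit (0.59, edgeR adjusted p = 0.134), without the library of fewest genes detected in each group (0.51, 0.376) or with all 12 libraries in 1 fit (0.60, 0.773), and Grip1 passed there in DESeq2 (-0.95) and had an adjusted p of up to 0.426 in the others. Grip1 passed between KO epidermis and dermis with unscaled totals (1.67), in DESeq2 (1.25, adjusted p = 0.0297), in limma voom (1.37, 0.0071) and with all 12 libraries in 1 edgeR fit (1.21, 0.0169). With a library left out, Grip1 ranged from -1.22 to -0.84 between KO and Het epidermis and from 0.92 to 1.56 between KO epidermis and dermis, and Frem2 from 0.47 to 0.76 between KO and Het epidermis and from -0.55 to -0.24 between E13 and E9. Genes called numbered 656 in DESeq2 and 656 in limma voom, against 287, between KO and Het epidermis, 1667 and 1729, against 952, between E13 and E9, and 1820 and 2575, against 1001, between KO and E9. With a library left out the counts were 182 (without KO replicate 1) to 348, 569 (without E9 replicate 2; 597 without E9 replicate 1) to 812, and 557 (without E9 replicate 2; 606 without E9 replicate 1, 592 without KO replicate 1) to 815 for these comparisons. They were 2934 (without dermis replicate 3) to 5269, 3477 to 5713 and 4243 to 5774 for E13 Het, KO and E9 epidermis against dermis. A replicate block gave 286, 576 and 540 calls in the epidermal comparisons, with Frem2 at 0.60 (edgeR adjusted p = 0.0842) and Grip1 at -0.99 (0.165) between KO and Het epidermis. Same-numbered libraries deviated together with correlations of -0.065 to 0.25, the highest between KO replicate 2 and E13 Het replicate 2. The labels link them by number only, and whether they were handled together was not tested. With all 12 libraries in 1 fit, Npnt, Hmcn1 and Itga3 were not called between KO and Het epidermis (edgeR adjusted p = 0.174, 0.151 and 0.591), nor Trp63 between E13 and E9 (0.189). With only the compared groups in the fit, Hmcn1 (0.103) and Itga3 (0.0767) lost their KO to Het calls. Without the library with the fewest genes detected in each group, Npnt (0.17) and Hmcn1 (0.319) did. The cause of these differences was not tested. Depth limits the dermal Frem2 value, which rests on 46 counts in all.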
